A study of Mus musculus with 4 samples.

Results

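The tetraspanin family was examined in 4T1, a mouse mammary carcinoma cell line, as 27 genes out of the 18193 genes that the array annotation names by a single symbol. The members were taken by symbol: every gene called Tspan followed by a number, together with Cd9, Cd37, Cd53, Cd81, Cd82, Upk1a, Upk1b and Prph2. Cd63 was also on the list of symbols and was not analysed here. Each gene is represented by its brightest probe set, the group of short probes that reads one transcript.

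The arrays compared 4T1 cells that carried CD44v8-10, a form of the cell-surface receptor CD44 with variant exons, with 4T1 cells that did not. Each group had 2 arrays, called replicates 1 and 2, and all cells were grown in the same serum-containing medium at normal oxygen and picked by hand under a microscope. How the cells were divided by CD44v8-10 is not given in the labels used here. No other treatment or genetic change was labelled in either group, and 4T1 is a single established line, so the comparison covers one tumour background. Whether the replicates were separate cultures is not labelled, and p-values here reflect the spread among these 4 samples alone, which could be technical.

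Tetraspanins are small proteins that cross the membrane several times and gather integrins, proteases and receptors into membrane patches called tetraspanin-enriched microdomains. Through these partners they act in adhesion, migration, cell fusion, protease maturation and the release of extracellular vesicles. In carcinoma cells Cd82 and Cd9 are best known as restraints on spread, whereas Tspan8 and Cd151 have been linked to invasion.

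No tetraspanin gene passed the test for a difference between the groups. Of the 27 genes, 20 had a probe set above the filter on dim signals and were tested, and 0 of these 20 passed an adjusted p of 0.05 in limma in either direction, where 0.0753% of all 11956 genes tested did. At an unadjusted p under 0.05, 1 member, Upk1a, was higher in the CD44v8-10-positive cells and 0 were lower, which is 1 of 20 beside 4.45% of all genes (2.68% higher and 1.76% lower). The differences ran from -0.34 for Tspan10 to 0.80 for Upk1a on the log2 scale, positive minus negative cells. For 15 of the 20 members the 95% interval lay within a change of 1 on that scale, in signal plus 16.

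The arrays differed in brightness, with 2% trimmed mean intensities of 237 and 220 in the positive replicates against 196 and 345 in the negative ones, and were put on one scale by quantile normalization. Signals below are these normalized intensities, and the filter level was 19.4. Differences are fitted on log2(signal + 16), which understates the change of dim genes. Signals of different probe sets depend on the probes, so they are compared between groups and not between genes. The identity of the cells was checked by marker genes: all 8 epithelial markers lay above the filter, as did 5 of 8 macrophage markers, 2 of 6 fibroblast markers, 0 of 5 lymphocyte and 0 of 5 endothelial markers. Over all genes 65.7% lay above the filter. Of the 5 macrophage markers, 4 had groups that did not overlap, higher in the positive cells, beside 18.5% of all genes. Of these 5 markers 0 passed. In bulk RNA of this kind, fewer cells that express a gene and less RNA per cell cannot be told apart.

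The members divided into genes above and genes below the filter. The 7 members below the filter were Cd37, Cd53, Prph2, Tspan1, Tspan8, Tspan11 and Upk1b. Cd37 and Cd53 are tetraspanins of leukocytes, Prph2 shapes the disc rims of photoreceptors, and Upk1b belongs to the plaques of the bladder lining. Tspan1 and Tspan8 are found in epithelia and in several carcinomas.

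Cd53 gave signals of 6.68 and 10.8 in the positive replicates against 9.48 and 8.02 in the negative ones, all under the filter level. Prph2 did not exceed 3.95 on any array. In the other 5 at least 1 array rose above the level: Cd37 reached 25.8 and Tspan11 33.9 in negative replicate 1, Upk1b 25.8 in negative replicate 2, and Tspan1 39.5 in positive replicate 1. Tspan8 lay at 23.5 and 22.9 in the positive replicates, with 4.92 and 27.0 in the negative ones. In each of these 5 genes the replicates of at least 1 group disagreed with each other, on opposite sides of the filter level, and no difference was fitted for them.

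**Figure D1:**
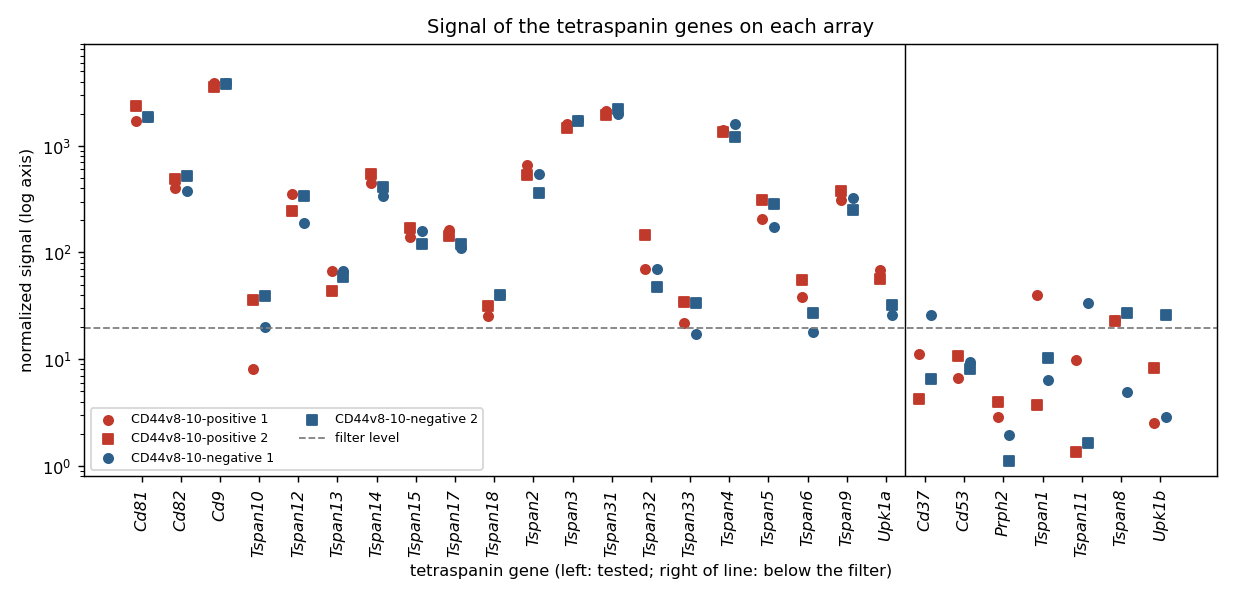
Normalized signal (log axis) of the 27 tetraspanin genes on each of the 4 arrays. Red points are CD44v8-10-positive and blue points CD44v8-10-negative samples, circles replicate 1 and squares replicate 2, and the dashed line is the filter level of 19.4. The 20 tested genes stand left of the vertical line and the 7 below the filter right of it. For most tested genes the red and blue points overlap, and for Upk1a both red points, 68.7 and 56.2, lie above both blue ones, 25.7 and 32.2.

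The promoter windows of the members differed along the same division. The 250 bases before the annotated start, taken from RefSeq on build GRCm38.p6, were available for 25 of the 27 genes, 19 above the filter and 6 below it. CG dinucleotides, which cluster in the promoters of many widely used genes, were counted in each window. Their median was 14 in the members above the filter, with a range from 0 to 33, and 4 in those below it, with a range from 2 to 8. At least 10 were present in 13 of the 19 and in 0 of the 6. Over all genes of the array with a window the medians were 16 for the 9664 above and 5 for the 4785 below the filter, and 73.6% and 30.9% held at least 10, so the same contrast held over the array as a whole. These counts describe the windows, and no test was made. The following windows are shown 5′ to 3′ to set a CG-rich window beside CG-poor ones from either side of the filter: the vesicle marker Cd81 (chr7:143052500-143052749, plus strand), the uroplakin Upk1a (chr7:30612735-30612984, minus strand) and the leukocyte gene Cd53 (chr3:106790150-106790399, minus strand), with CG dinucleotides in capitals.
Cd81: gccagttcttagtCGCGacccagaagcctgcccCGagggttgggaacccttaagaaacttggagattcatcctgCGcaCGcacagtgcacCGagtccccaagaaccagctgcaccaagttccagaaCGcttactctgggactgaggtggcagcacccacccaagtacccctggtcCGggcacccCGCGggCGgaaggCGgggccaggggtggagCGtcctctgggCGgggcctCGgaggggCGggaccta
Upk1a: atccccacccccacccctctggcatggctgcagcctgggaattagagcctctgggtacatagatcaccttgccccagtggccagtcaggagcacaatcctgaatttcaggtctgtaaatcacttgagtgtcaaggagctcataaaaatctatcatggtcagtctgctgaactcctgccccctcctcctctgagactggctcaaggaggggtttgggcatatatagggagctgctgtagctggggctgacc
Cd53: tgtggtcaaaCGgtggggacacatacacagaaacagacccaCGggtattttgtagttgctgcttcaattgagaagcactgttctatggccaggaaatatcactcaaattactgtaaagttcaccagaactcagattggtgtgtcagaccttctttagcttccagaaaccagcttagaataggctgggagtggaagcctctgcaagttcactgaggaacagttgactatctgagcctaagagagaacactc
Cd81 has 16 CG dinucleotides, Cd53 has 2 and Upk1a has 0, although Upk1a is a gene above the filter. Tspan10 and Tspan32, with 1 each, were likewise measured without a CG-rich window, while Tspan5 had 33, the most of the family.

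Short motifs were also counted on both strands of the same windows. The GC box GGGCGG, a site of Sp-family factors, was present in 10 of the 19 members above and 2 of the 6 below the filter, beside 59.3% of all genes above and 30.9% of those below it. Tspan17 held 8 copies, Tspan9 held 6 and Tspan14 held 5. CAGGTG, the letters to which the epithelial repressors of the Snail and Zeb families are known to bind, was found in 5 of the 25 windows and in 16.9% of all genes; the 5 were Cd9, Cd37, Tspan1, Tspan4 and Tspan33. TATAAA was present in 1 window, that of Tspan12, and in 9.02% of all genes. A GC box holds a CG dinucleotide, so its sites also enter the CG counts.

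**Figure D2:**
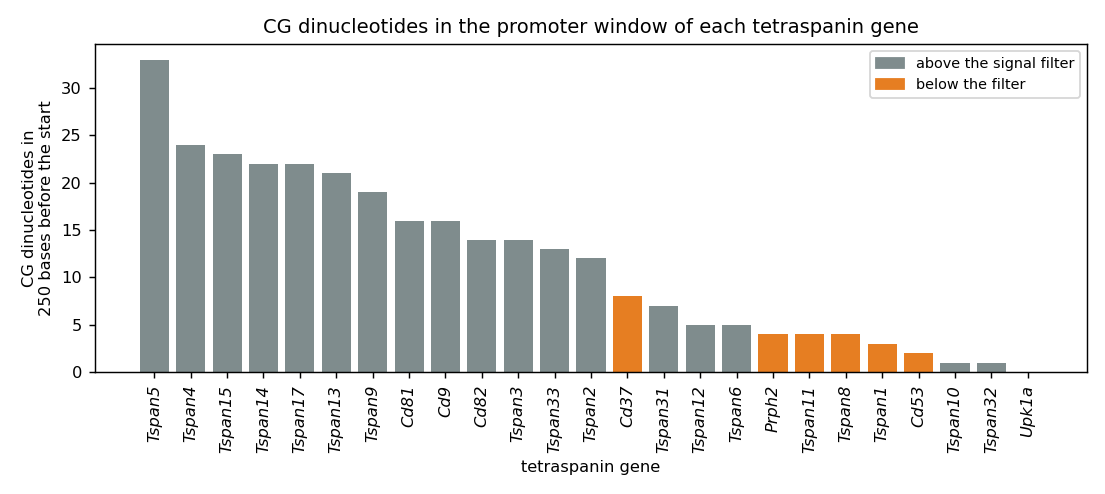
Number of CG dinucleotides in the 250 bases before the annotated start of each of the 25 tetraspanin genes with a promoter window, in falling order. Grey bars are genes above the signal filter and orange bars genes below it. All 13 genes with at least 10 are grey, and Upk1a, at 0, has no visible bar.

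Among the tetraspanins known as surface markers of extracellular vesicles, Cd9 and Cd81 were measured. Cd9, which also holds integrins and controls membrane fusion, gave 3840 and 3536 in the positive replicates against 3882 and 3802 in the negative ones. Positive replicate 1 lay between the negative ones and positive replicate 2 below both, and the difference was -0.06 ± 0.15 (SE), with a 95% interval from -0.39 to 0.27 (limma adjusted p 0.990). Cd81, a partner of the B-cell coreceptor and of Igsf8, gave 1689 and 2354 in the positive replicates against 1867 and 1859 in the negative ones. Positive replicate 1 lay below and positive replicate 2 above both negative ones, and the difference was 0.10 ± 0.20 (interval -0.33 to 0.52).

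Cd82, known as a suppressor of metastasis, gave 400 and 486 in the positive replicates against 373 and 517 in the negative ones. The positive values fell inside the range of the negative ones, and the difference was 0.005 ± 0.23 (interval -0.50 to 0.51, limma adjusted p 0.999). Its second probe set, dimmer, gave 0.24 ± 0.37 with overlapping groups. For Cd9 and Cd82, the members most often tied to restraint of spreading, no difference was detectable at this precision.

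Several further members had differences near 0 with narrow intervals. Tspan31, a gene first found amplified in sarcomas, gave 2134 and 1956 against 1972 and 2222, a difference of -0.04 ± 0.17. Its second probe set gave 0.19 ± 0.19, with groups that did not overlap. Tspan4, which takes part in forming migrasomes, the vesicles that migrating cells leave behind, gave 1392 and 1345 against 1584 and 1201, a difference of -0.01 ± 0.20. On their brightest probe sets both were thus bounded to within 0.44 of 0 by their 95% intervals, -0.41 to 0.34 and -0.44 to 0.42. In Tspan3, whose interval was as narrow, the groups did not overlap, with 1615 and 1459 in the positive replicates against 1726 and 1720 in the negative ones. Its difference was -0.17 ± 0.18 (interval -0.55 to 0.22, limma adjusted p 0.985), close in size to the gap of 0.15 between its positive replicates.

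The TspanC8 subgroup comprises Tspan5, Tspan10, Tspan14, Tspan15, Tspan17 and Tspan33, which escort the protease Adam10 out of the endoplasmic reticulum and steer it to its substrates. All 6 lay above the filter, 5 above 0 and 1 below, and 0 passed. Tspan14 gave 447 and 549 in the positive replicates against 340 and 413 in the negative ones, so that the groups did not overlap, with a difference of 0.39 ± 0.22 (interval -0.10 to 0.87, unadjusted p 0.107 and adjusted p 0.985 by limma). Tspan17 gave 161 and 144 against 111 and 121, again without overlap, with a difference of 0.35 ± 0.24. Its second probe set, at 93.4 and 108 against 55.7 and 85.1, gave 0.45 ± 0.29 in the same direction.

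The remaining TspanC8 genes overlapped between the groups. Tspan5 gave 207 and 311 against 172 and 285, a difference of 0.18 ± 0.28, and its second probe set gave -0.10. Tspan15 gave 140 and 168 against 158 and 119 (0.15 ± 0.25). Tspan10 and Tspan33 were dim, and in each 1 of the 4 arrays lay below the filter level. Tspan10 gave 8.08 and 35.6 against 20.1 and 38.8, with the widest interval of the family, -1.35 to 0.68, and the probe sets of Tspan33 above the filter gave 0.10 and -0.31. Adam10 itself gave 1617 and 1550 in the positive replicates against 1493 and 2274 in the negative ones, a difference of -0.22 ± 0.21 (interval -0.68 to 0.25, limma adjusted p 0.985).

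Upk1a had the highest difference of the family. It encodes uroplakin 1a, a tetraspanin of the rigid plaques on the surface of the bladder lining. Its signals were 68.7 and 56.2 in the positive replicates against 25.7 and 32.2 in the negative ones, and the deposited intensities before normalization were 60.1 and 53.8 against 19.1 and 43.0. The groups did not overlap on either scale. The difference was 0.80 ± 0.33 (interval 0.08 to 1.53), or 1.75-fold on the log2(signal + 16) scale, with an unadjusted p of 0.0327 and an adjusted p of 0.985 by limma. It rests on 1 dim probe set and stayed between 0.69 and 0.92 when each array was left out in turn. With no scaling, and with no filter, the unadjusted p of Upk1a by limma was not under 0.05. With the filter at the 60th percentile Upk1a was not tested.

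Of 8 epithelial markers 4 passed (Cldn7, Krt14, Cldn3 and Epcam), all higher in the positive cells, where 0.0753% of all genes passed. These markers were chosen with earlier results of these data known, so the count is no test of epithelial genes as a set. The other 4 were Krt5 at 0.95, Cdh1 at 0.28, Krt18 at 0.08 and Krt8 at 0.06, and the summed signal of the 8 was 29807 and 31652 in the positive replicates against 22396 and 27149 in the negative ones. The part of epithelial genes in the difference of Upk1a was not tested. Among the other uroplakins, Upk2 gave 37.0 and 59.0 in the positive replicates against 34.7 and 33.4 in the negative ones (0.33 ± 0.35). Upk3a and Upk3b were below the filter. The other members assigned to epithelia were Tspan13, Tspan15, Tspan1, Tspan8 and Upk1b. Tspan13 gave 67.0 and 43.9 against 66.6 and 58.9 (-0.16 ± 0.31), and its second probe set, at 43.3 and 42.4 against 79.2 and 45.9, gave -0.38 ± 0.33 without overlap. Of the 6 genes, Upk1a included, 3 were above the filter.

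Tspan6 and Tspan32 came next to Upk1a in size. Tspan6, an inhibitor of antiviral signalling through Mavs, gave 38.1 and 54.8 in the positive replicates against 17.9 and 27.2 in the negative ones. The groups did not overlap, 1 negative array lay below the filter level, and the difference was 0.69 ± 0.37 (interval -0.12 to 1.50, limma adjusted p 0.985). The second probe set of Tspan6, from 1.80 to 6.25, was below the filter level on every array. Tspan32, a tetraspanin of blood cells, gave 70.6 and 145 against 70.2 and 47.8. Positive replicate 1 stood level with negative replicate 1, and positive replicate 2 alone stood clear of the other arrays. By the margin of 70.6 over 70.2 its groups are counted as not overlapping. The difference of Tspan32 was 0.67 ± 0.34 (interval -0.07 to 1.41, limma adjusted p 0.985), 0.22 without positive replicate 2 and 1.11 without positive replicate 1. Its second probe set, at 1.80 and 9.40 against 2.88 and 14.5, was below the filter level throughout.

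Markers of macrophages were set beside Tspan32. Of 8 markers 5 were above the filter, beside 65.7% of all genes, and 4 of these 5 lay above 0, beside 54.3%. The summed signal of the 8 was 506 and 644 in the positive replicates against 443 and 401 in the negative ones. It was highest on the array where Tspan32 was highest. The common leukocyte antigen Ptprc gave 1.55 and 12.6 against 0.825 and 2.05, below the filter level on every array, as was Cd53. The markers Tyrobp and Fcer1g were also below the filter. No label names macrophages, and neither their presence nor a part of theirs in the signal of Tspan32 was tested.

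The other members gave small differences. Tspan2, known from oligodendrocytes and neurons, gave 666 and 528 in the positive replicates against 543 and 363 in the negative ones. Positive replicate 2 lay just below negative replicate 1, so the groups overlapped, and the difference was 0.40 ± 0.24 (interval -0.13 to 0.93). All 3 probe sets of Tspan2 pointed the same way, at 0.40, 0.32 and 0.47, and for the last of them the groups did not overlap (333 and 294 against 274 and 178). Tspan9, a platelet tetraspanin, gave 308 and 374 against 324 and 252, with 0.24 ± 0.23 from this probe set and 0.42 ± 0.31 from its dimmer one.

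Tspan12 is a component of the receptor complex for Norrin with Fzd4. It gave 352 and 245 in the positive replicates against 189 and 338 in the negative ones, and the gap of 0.79 between its negative replicates was larger than the difference of 0.20 ± 0.29 between the groups. Fzd4 gave 85.0 and 87.0 against 90.1 and 98.0 (-0.11 ± 0.26). Tspan18, an endothelial regulator of calcium entry, gave 25.4 and 31.5 against a mean of 39.7 ± 0.371 (SD, n = 2) without overlap, a difference of -0.33 ± 0.36 (interval -1.10 to 0.44, limma adjusted p 0.985). Its other 2 probe sets were below the filter.

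**Figure D3:**
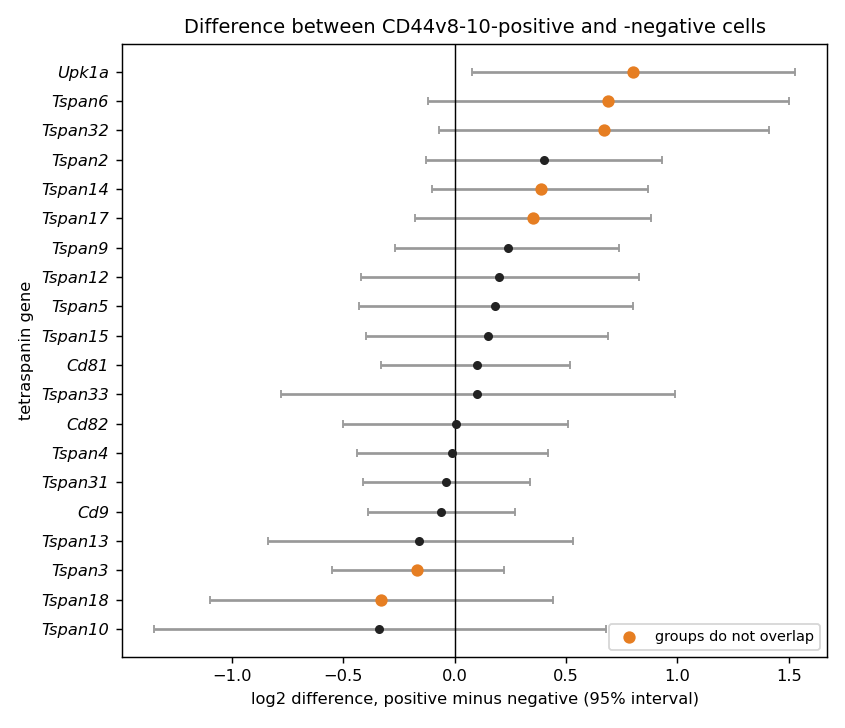
Log2 difference between CD44v8-10-positive and CD44v8-10-negative cells for the 20 tested tetraspanin genes, ordered by size; points are fitted differences and bars their 95% intervals from limma. Orange points mark the 7 genes whose groups did not overlap. The interval of Upk1a, 0.08 to 1.53, is the one that does not include 0, and its adjusted p was 0.985.

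Taken over the family, 13 of the 20 tested members lay above 0 and 7 below, or 65.0% above 0 beside 54.3% of all genes. The median difference was 0.12, with quartiles of -0.04 and 0.36, beside a median of 0.03 over all genes. The sign of the family's median turned with no scaling between arrays, to -0.06, where the median of all genes was -0.15, and it was 0.02 with arrays centred on their median, where all genes stood at -0.07. Relative to all genes the family's median stood between 0.09 and 0.10 higher under these scalings, quantile normalization and scaling to one trimmed mean. Without negative replicate 1 that gap was -0.0043, and without positive replicate 2 it was 0.01. It was 0.10 without negative replicate 2 and 0.21 without positive replicate 1.

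Groups that do not overlap were about as frequent in the family as elsewhere. They were found in 7 of the 20 members, 5 higher and 2 lower in the positive cells, which is 35.0% beside 32.3% of all genes (18.5% higher and 13.8% lower). Tspan32 is among the 5 by a narrow margin, 70.6 in positive replicate 1 against 70.2 in negative replicate 1. The difference between groups was larger than the gap between replicates within either group in 6 members: Upk1a, Tspan6, Tspan14, Tspan17, Tspan3 and Tspan18. The same count was not made over all genes, so whether 6 of 20 is more than elsewhere is not known. With 2 arrays a group, the median standard error of a member was 0.25. Over the 11956 genes tested, positive replicate 1 correlated with the negative arrays at 0.985 and 0.980 (Pearson), and with positive replicate 2 at 0.972. Positive replicate 2 correlated with the negative arrays at 0.968 and 0.969, and the negative arrays with each other at 0.981. Positive replicate 1 was thus closer to the negative arrays than to its own group.

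**Figure D4:**
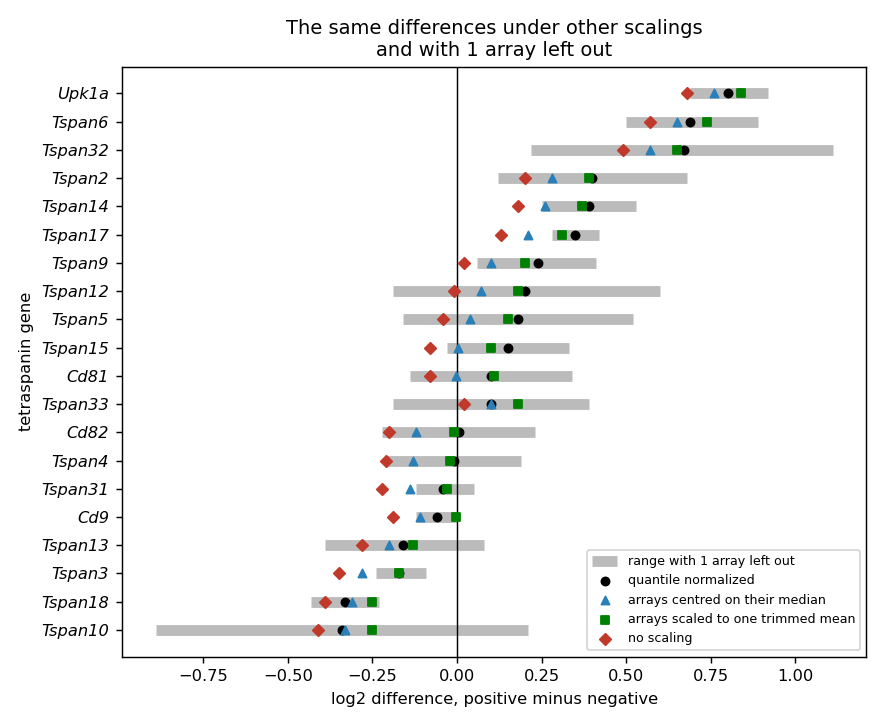
Log2 difference between CD44v8-10-positive and CD44v8-10-negative cells for the 20 tested tetraspanin genes under 4 scalings of the arrays (symbols) and its range when each of the 4 arrays was left out in turn (grey bars). The values with no scaling lie to the left of the others for most genes, in step with a median of -0.15 over all genes. Upk1a, Tspan6, Tspan32, Tspan2, Tspan14, Tspan17 and Tspan9 lie above 0 and Tspan3 and Tspan18 below 0 throughout, while the grey bar of Tspan10 runs from -0.89 to 0.21.

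Some members are neighbours in the genome without another protein-coding gene between them. On chromosome 7 Tspan32 adjoins Cd81, on chromosome 2 Tspan18 adjoins Cd82, and on chromosome 6 Tspan11 adjoins Tspan9. The differences of the first pair were 0.67 and 0.10 and those of the second -0.33 and 0.005, and none of them passed. In the third pair Tspan9 was measured on all 4 arrays while Tspan11 was below the filter in all 4 of its probe sets.

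Cd151 and Rom1 are tetraspanins whose symbols fall outside the naming rule. Cd151, the partner of laminin-binding integrins, lies on chromosome 7 with 1 protein-coding gene, Polr2l, between it and Tspan4. Its brightest probe set gave 1512 and 1560 in the positive replicates against 1494 and 2052 in the negative ones, a difference of -0.19 ± 0.20 (interval -0.62 to 0.24, limma adjusted p 0.985). The further Cd151 probe sets that passed the filter gave -0.09, 0.34, 0.03 and -0.26. Rom1, the photoreceptor partner of Prph2, was below the filter.

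Among the known partners of tetraspanins, 2 epithelial genes rose. Of 44 listed partners 40 were tested and 2 passed, where 0.0753% of all genes did. The list was chosen with earlier results of these data known, so this count is no evidence about partners as a set. Both were higher in the positive cells. Cldn7, a tight junction claudin, stood at 2.31 ± 0.22 (limma adjusted p 0.000639). Epcam, an epithelial adhesion molecule, stood at 1.34 ± 0.18 (limma adjusted p 0.0118). Both are also on the list of epithelial markers, so these are the calls already given there and not further ones. Cldn7 and Epcam are known to be held with Cd9 or Tspan8 in the membranes of carcinoma cells. Their signals, 1152 and 904 against 203 and 184 for Cldn7 and 2309 and 2479 against 940 and 930 for Epcam, separated the groups by far more than the replicates differed, while the difference of Cd9 was -0.06. The call of Epcam was lost without positive replicate 2 (limma adjusted p 0.207), with no filter (0.105) and with probe sets averaged per gene (0.189). With no scaling and without the intensity trend both calls were lost, with limma adjusted p of 1.00 for Cldn7 and 1.00 for Epcam in the first setting and 0.0760 and 0.309 in the second.

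The integrins that bind tetraspanins gave smaller differences. Itga3 (0.12 ± 0.23), Itgb1 (0.27 ± 0.17) and Itga6 (-0.26 ± 0.19) did not pass, nor did Itgb4 (0.74 ± 0.34, unadjusted p 0.0470 and adjusted p 0.985 by limma), whose groups overlapped. The direct Cd9 and Cd81 partners Igsf8 and Ptgfrn gave 0.11 ± 0.27 and -0.04 ± 0.25, and Sdcbp, the adaptor that links tetraspanins to vesicle budding, gave -0.15 ± 0.16. Its paralog Sdcbp2 gave 253 and 189 in the positive replicates against 170 and 87.9 in the negative ones, without overlap, at 0.75 ± 0.30 (unadjusted p 0.0258 and adjusted p 0.985 by limma). The largest differences among the other partners with separated groups were Notch1 (0.48), Dpp4 (0.47) and Icam1 (-0.46). The median over the 40 partners was 0.08. In 16 of the 40 the groups did not overlap, 9 higher and 7 lower in the positive cells, beside 32.3% of all genes.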

How the data were processed

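Total RNA of 4 samples of 4T1 cells, 2 per group, was measured on one-colour Affymetrix arrays, and samples were grouped by their titles. The authors deposited 1 linear intensity per probe set and array, from 0.1 to 22695.6 over 45101 probe sets. Per the submitters' processing notes GCOS was used, with no role named; how probes were summarised, corrected for background or scaled is not given in the sources used here. Gene names came from the 2016 platform annotation, and all 27 member symbols matched the reference gene table.

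Because the arrays differed in brightness they were quantile normalized, transformed as log2(value + 16), stripped of 64 controls and filtered at the 40th percentile of the mean, leaving 27022 probe sets and 11956 genes. The comparison used limma's lmFit and trended eBayes (limma 3.58.1, R 4.3.3), two-sided, with p-values adjusted by Benjamini-Hochberg across the genes tested and a threshold of 0.05, and was tested on simulated data. The number of arrays limits the precision. Members, lists and tests were chosen with earlier results of these data known. Named genes were all members, Cd151, Rom1, the partners past the threshold and the 6 largest partner differences with separated groups; other partners, markers and motifs were chosen after their values were seen. Promoter windows are RefSeq's; a gene with several was taken at its most upstream. Alternatives were other scalings, pseudocounts, filters, probe set choices and priors, a replicate block, and fits without each array.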

Additional observations from a re-analysis of the deposited data

How the results depend on the processing

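In 17 alternatives to the settings used, 0 tetraspanin genes passed limma's adjusted p of 0.05 (lowest adjusted p 0.250, for a fit without positive replicate 1), and 0 to 2 had an unadjusted p under 0.05. The number of all genes past the threshold, 9, became 25 with arrays centred on their median (20 higher and 5 lower), 3 with no scaling, 3 with no filter, 2 without the intensity trend, 18 with the replicate number as a block and 6 to 23 with 1 array left out. The partner count of 2 fell to 0 with no scaling or without the trend, to 1 with no filter or with probe sets averaged per gene, and ran from 1 to 2 with 1 array left out. The family's median ran from 0.03 to 0.25 with 1 array left out. The replicate block left 0 members called; same-numbered arrays deviated together only weakly (correlation 0.12), and the labels tie no shared day to a number. With 1 array left out, the lone array of its group was assumed to vary like the others.

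Signs of uncalled members turned as follows, and the cause was not tested. With arrays centred on their median Cd81 was -0.0018 and Cd82 -0.12, and with one trimmed mean Cd82 was -0.01. With no scaling Cd81 was -0.08, Cd82 -0.20, Tspan5 -0.04, Tspan15 -0.08 and Tspan12 -0.01. With the mean of probe sets Tspan31 was 0.04 and Tspan33 -0.11, and their other probe sets gave 0.19 and -0.31, that of Tspan5 -0.10. With 1 array left out the ranges were -0.14 to 0.34 (Cd81), -0.22 to 0.23 (Cd82), -0.89 to 0.21 (Tspan10), -0.19 to 0.60 (Tspan12), -0.39 to 0.08 (Tspan13), -0.03 to 0.33 (Tspan15), -0.12 to 0.05 (Tspan31), -0.19 to 0.39 (Tspan33), -0.21 to 0.19 (Tspan4) and -0.16 to 0.52 (Tspan5). The 10 other members kept their sign in every setting in which they were tested.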
